A study of Mus musculus with 168 samples.

Results

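Mir335 is a microRNA gene that lies inside Mest, a gene on mouse chromosome 6 that is expressed from the paternal copy only. It was found as the 1 row, of 1626 transcripts in the deposited hippocampus table, whose transcript identifier (ENSMUST00000083567, gene ENSMUSG00000065501) is Mir335 in the GENCODE M21 annotation. Mir335 was selected on its slope with CAG length at 6 and 10 months (6m and 10m), so all values that compare genotypes at those ages are given as a description with no test. Tests are given for the 2-month (2m) libraries, sex and age, which the selection did not use.

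The libraries hold short RNA from the hippocampus of C57BL/6 mice at 2m, 6m and 10m. Mice of the Q20, Q80, Q92, Q111, Q140 and Q175 lines carried human HTT exon 1 with that nominal number of CAG repeats in 1 of their 2 Htt copies, and the other copy was the normal mouse gene. The wild type (WT) mice were littermates of the Q20 mice, and WT and Q20 together are the controls. All knock-in mice were heterozygous, each line stands for 1 repeat length only, and the Q175 line arose from the Q140 line when its repeat expanded. Each of the 21 groups held 8 libraries, 1 animal per library, with 4 females and 4 males except in Q80 at 2m (5 males and 3 females) and Q20 at 10m (3 males and 5 females).

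A microRNA is cut from a hairpin in a longer transcript, and 1 or both arms of the hairpin become a mature strand that pairs with messenger RNAs, mainly through its seed (bases 2 to 8), and represses them. Mest encodes an enzyme-like protein of the alpha/beta hydrolase family and is one of the classical imprinted genes, in which the maternal copy is silenced by DNA methylation. miR-335 is known in human breast cancer cells as a repressor of SOX4 and tenascin C and of metastasis.

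The hairpin lies at chr6:30741299-30741396 on the forward strand of GRCm38 (the build also called mm10), 17752 bases after the annotated start of Mest (chr6:30723547-30748465, forward strand). Of the Mest transcripts in the annotation, 7 span it, and none of them holds a base of it in an exon. In the 6 protein-coding ones it lies in intron 2 or intron 3. The hairpin and both mature strands are shown because the deposited table has 1 value for the hairpin and cannot separate its arms. In the hairpin the capitals mark the mature arms, and in the mature strands they mark the seed. Sequences are from RefSeq, build GRCm38.p6.
Mir335 hairpin: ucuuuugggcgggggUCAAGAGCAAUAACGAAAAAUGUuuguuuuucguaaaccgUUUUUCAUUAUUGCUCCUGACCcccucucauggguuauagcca
mmu-miR-335-5p: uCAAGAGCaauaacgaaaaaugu
mmu-miR-335-3p: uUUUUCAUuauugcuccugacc

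The 5p strand (23 bases, 30.4% G or C) starts at base 30741314 and the 3p strand (22 bases, 36.4% G or C) at base 30741354. No other name among the 1679 mature mouse microRNAs of that table has either seed, CAAGAGC or UUUUCAU. Mir335 therefore had no partner of shared seed with which to be grouped here.

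Mir335 was counted in every library. Its deposited counts were whole numbers in all libraries and ran between 1505 and 5849, with a median of 2984.5, although in the median library only 51.4% of nonzero values were whole (tolerance 0.001). Library totals ran between 2117539 and 9099227 counts. Levels are given as CPM (the share of a library's counts on a common scale), scaled between libraries by the trimmed mean of M values (TMM, edgeR), whose factors lay between 0.916 and 1.22. Mir335 averaged 872 CPM and held 0.0866% of all counts, rank 93 in the table. At its lowest count, the counting error is 2.58% of the value, so that most of the spread below is between libraries. A fall in the number of cells that make Mir335 and a fall in Mir335 per cell cannot be told apart in bulk tissue. The RPKM values of 16 libraries at 6m, all WT and Q175 (block A, named from the library numbers), stand on another scale. The ratio of RPKM to CPM, here taken without TMM scaling, was 10.2 there and between 6.59 and 7.03 in the other 152 libraries.

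At 10m Mir335 was highest in Q175. The 8 Q175 libraries had 966, 1009, 1086, 1159, 1161, 1164, 1193 and 1251 CPM. The 8 Q20 libraries lay between 861 and 1067 CPM with a median of 937, and the 8 WT libraries between 828 and 1104 CPM with a median of 922. Every Q175 library was above the control median of 928 CPM, and 5 of 8 were above all 16 controls. The groups still overlapped, since 4 of 16 controls were above the lowest Q175 library. Those 5 were also above all 48 libraries of the other genotypes, whose highest had 1115 CPM. Groups at 10m averaged 925 ± 82.0 CPM in WT, 946 ± 68.9 in Q20, 920 ± 145 in Q80, 948 ± 36.7 in Q92, 960 ± 87.6 in Q111, 986 ± 94.8 in Q140 and 1124 ± 96.2 in Q175 (SD, n = 8 each).

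The order of the medians at 10m was WT, Q20, Q92, Q80, Q111, Q140 and Q175, low to high. Neighbours in that order did not differ beyond their spread, except that Q175 was 0.19 above Q140 on the log2 scale, more than the larger of their SDs (0.14). Even there the ranges overlapped, with Q175 between 966 and 1251 CPM and Q140 between 848 and 1111 CPM.

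**Figure D1:**
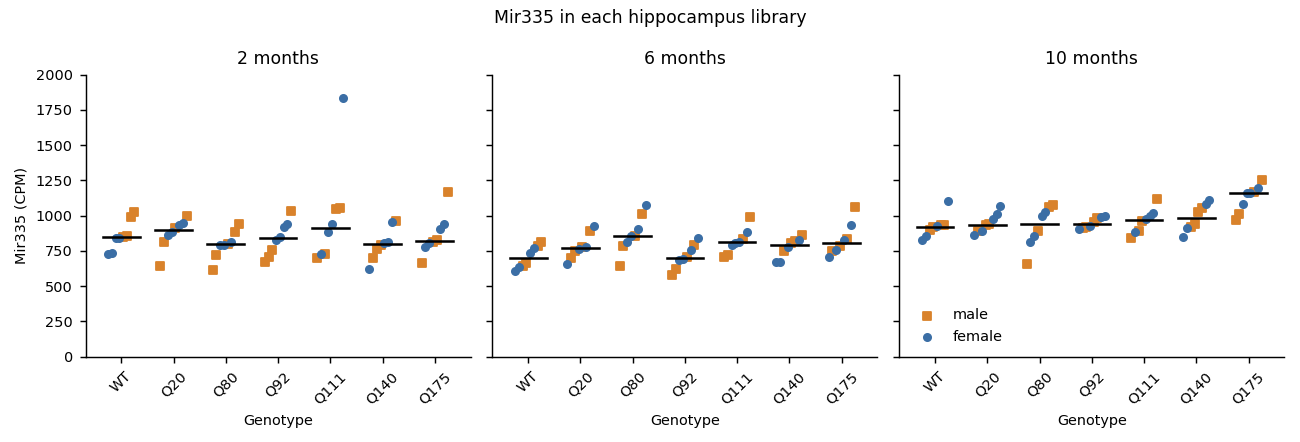
Mir335 level (CPM, linear axis) in each library, by genotype in order of CAG length, in a panel for each age; squares are males, circles females, and the bar is the group median. At 10m the Q175 median of 1160 CPM stands above the other medians, whereas at 2m and 6m the genotypes interleave and 1 Q111 library at 2m has 1836 CPM.

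Fitted over all libraries of an age with sex and library batch as covariates (edgeR, WT entered as 7 repeats), the slope of Mir335 was 0.14 log2 units per 100 repeats at 10m (SE 0.03, n = 56) and 0.09 at 6m (SE 0.05, n = 56). These are the values that chose the gene. They are modest by size: among the 470 transcripts tested, Mir335 ranked 132 at 10m by the size of its slope in either direction. At an adjusted p of 0.05 (quasi-likelihood test, Benjamini-Hochberg over the 470), 11.1% of transcripts were called at 10m and 1.28% at 6m. Nothing is read from these shares about Mir335, since the rule used the same contrast.

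The slope at 10m leaned on the longest repeats. Q175 exceeded the controls by 0.27 on the log2 scale (SE 0.05, 1.21-fold, 8 against 16 libraries), whereas the same value for Q140 was 0.08 (SE 0.06). Without Q175 the slope at 10m was 0.07 (SE 0.045), without Q140 it was 0.16 (SE 0.037) and without WT 0.18 (SE 0.046). In males it was 0.13 and in females 0.14.

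At 6m Mir335 was again higher in Q175 than in WT, but Q175 lay within the range of the other genotypes. The 8 Q175 libraries lay between 704 and 1061 CPM with a median of 807, the 8 Q20 libraries between 658 and 928 CPM with a median of 769 and the 8 WT libraries between 606 and 811 CPM with a median of 700. All 8 Q175 libraries were above the WT median and 5 of 8 above the Q20 median. Q80 had the highest median (855 CPM) and Q92 the lowest (699.7 CPM), close to WT. No pair of neighbours in the order of medians differed by more than the larger of their SDs.

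Batch and genotype cannot be told apart for part of the 6m libraries, because block A holds all WT and all Q175 libraries of that age and nothing else. Within block A, Q175 exceeded WT by 0.23 on the log2 scale, with means of 832 CPM in Q175 and 706 CPM in WT. The fitted value against both controls, 0.24 (SE 0.09), rests on that same pair, since Q20 was in the other block. Among the 40 libraries of the other block (Q20, Q80, Q92, Q111 and Q140), the fitted slope at 6m was -0.02 (SE 0.08). It was also -0.02 without Q175 and was -0.04 without WT, so that the sign of the 6m slope depended on block A. For Q140 at 6m the fitted difference was -0.01 (SE 0.07). It rests on Q20 as the only control, since WT was in block A and the batch term took it up.

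**Figure D2:**
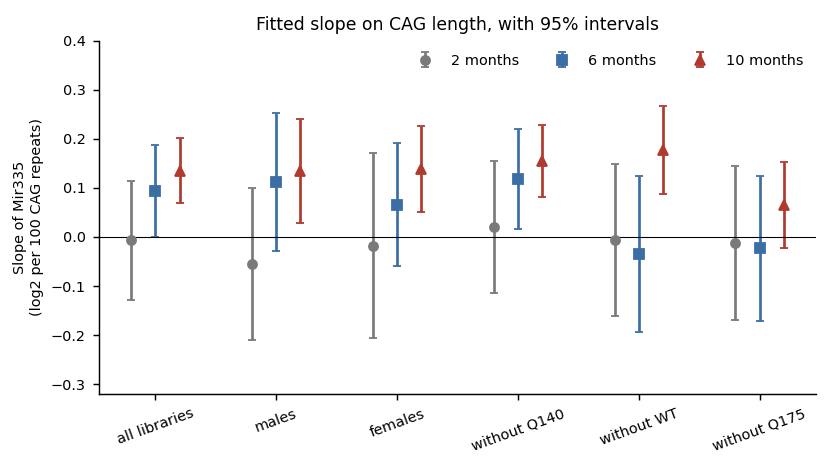
Fitted slope of Mir335 (log2 units per 100 CAG repeats) with 95% intervals at 2m (circles), 6m (squares) and 10m (triangles), for all libraries, each sex, and with a genotype left out. The fitted 10m slope is above 0 in each set, but without Q175 it is 0.07 (SE 0.045) and its interval includes 0. The 6m slope is -0.02 without Q175 and -0.04 without WT, and both of these fits rest on the libraries outside block A. The 2m slope is near 0 throughout. The 6m and 10m slopes chose the gene, so their intervals are a description and not a test.

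At 10m the difference was present in each library batch (the code in the library name). Q175 exceeded the controls by 0.27 on the log2 scale in batch L6 (3 against 8 libraries), by 0.26 in L7 (3 against 6) and by 0.33 in L8 (2 against 2). The slope over all genotypes was 0.12 in L6, 0.14 in L7 and 0.15 in L8. Leaving out each library in turn kept the 10m slope between 0.13 and 0.16.

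**Figure D3:**
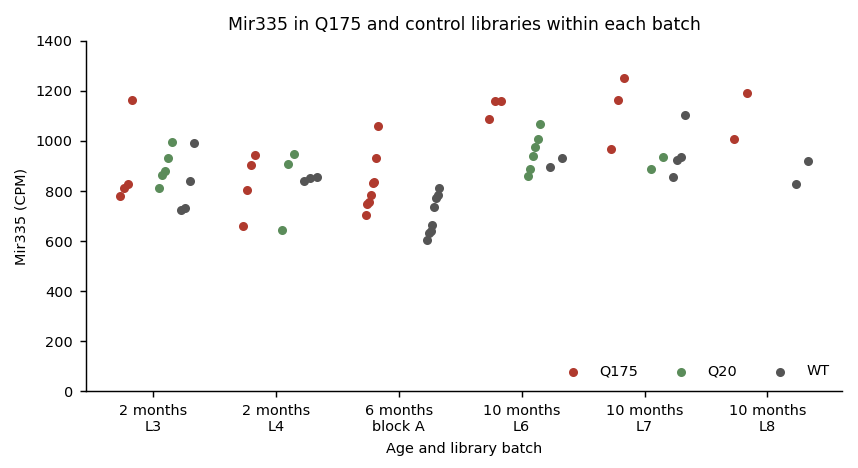
Mir335 level (CPM, linear axis) in single libraries of Q175, Q20 and WT within the library batches that hold Q175. In the 10m batches the Q175 means are 1135, 1127 and 1101 CPM, against control means of 946, 941 and 874 CPM. Among the 10m batches, single libraries of Q175 and the controls overlap in L7 only. They also overlap in the 2m batches and in block A at 6m.

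At 2m, libraries that the selection did not use, no relation with CAG length was detected. The 8 Q175 libraries lay between 661 and 1164 CPM with a median of 820, the 8 Q20 libraries between 645 and 997 CPM with a median of 896 and the 8 WT libraries between 725 and 1028 CPM with a median of 846. Only 3 of 8 Q175 libraries were above the control median of 861 CPM. The slope was -0.01 per 100 repeats (SE 0.06, 95% interval -0.13 to 0.11, adjusted p = 0.988, edgeR), where 0.213% of transcripts were called. The slopes fitted at 6m (0.09) and 10m (0.14) chose the gene and have errors of their own, so nothing is read from setting them against this interval. The difference between ages was not tested.

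The single alleles at 2m gave the same picture. Q175 differed from the controls by 0.02 on the log2 scale (SE 0.08, interval -0.14 to 0.19, adjusted p = 0.987, edgeR) and Q140 by -0.11 (SE 0.08, interval -0.27 to 0.06, adjusted p = 0.887, edgeR). In each of these comparisons edgeR called 0 of 470 transcripts (0%), with 8 at an unadjusted p under 0.05 for Q175 and 22 for Q140, and DESeq2 also called 0. Within the 2m batches, Q175 minus controls was 0.04 in L3 (4 against 9 libraries) and -0.03 in L4 (4 against 6).

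One 2m library stood far from its group. The female Q111 library F1 had 1836 CPM, and the other 7 Q111 libraries at 2m lay between 699 and 1052 CPM. In the same library the tumour suppressor microRNA let-7b had 1914 CPM, against 3633 to 4052 CPM in the other 7, and Mir31 had 241 CPM, against 98.6 to 125 CPM. Its library total of 2271878 counts was inside the range of its group (2117539 to 3751890). Of the 470 transcripts, 53 deviated further upward than Mir335 in this library, so that the deviation was not one of Mir335 alone.

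Age was compared in the 5 genotypes that were not in block A (Q20, Q80, Q92, Q111 and Q140, 120 libraries, genotype and sex as covariates). Their libraries averaged 859 ± 196 CPM at 2m, 790 ± 106 CPM at 6m and 952 ± 91.2 CPM at 10m (SD, n = 40 each). Mir335 fell by 0.12 log2 units at 6m relative to 2m (SE 0.05, adjusted p = 0.0279, edgeR) and was higher at 10m than at 2m by 0.15 (SE 0.05, 1.11-fold, adjusted p = 0.0048, edgeR). It was higher at 10m than at 6m by 0.27 (SE 0.05, 1.21-fold, adjusted p = 5.28e-07, edgeR), a comparison added after the data were seen. Age moved much of the table: 48.7% of transcripts were called between 6m and 2m, 41.9% between 10m and 2m and 49.4% between 10m and 6m. Each age was sequenced in library batches of its own, so that age and batch cannot be told apart.

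The difference between 6m and 2m was the weakest of these. It was -0.09 (adjusted p = 0.0666, edgeR) without the high Q111 library, -0.07 in males alone (adjusted p = 0.408) and -0.17 in females alone (adjusted p = 0.0489), a difference between sexes that was not tested. That between 10m and 2m was not called in females alone (0.11, adjusted p = 0.257) or in WT and Q20 alone (0.11, adjusted p = 0.146). That between 10m and 6m was called under each alternative run, with values between 0.26 and 0.33.

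The difference between 6m and 2m varied in sign among the genotypes, which was not tested. At 6m relative to 2m, the difference of mean log2 CPM was -0.28 in WT, -0.16 in Q20, 0.12 in Q80, -0.23 in Q92, -0.21 in Q111, -0.04 in Q140 and -0.05 in Q175. At 10m relative to 2m it was above 0 in all 7, at 0.11 in WT, 0.12 in Q20, 0.20 in Q80, 0.19 in Q92, 0.02 in Q111, 0.31 in Q140 and 0.39 in Q175. The value in Q111 contains the high 2m library.

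**Figure D4:**
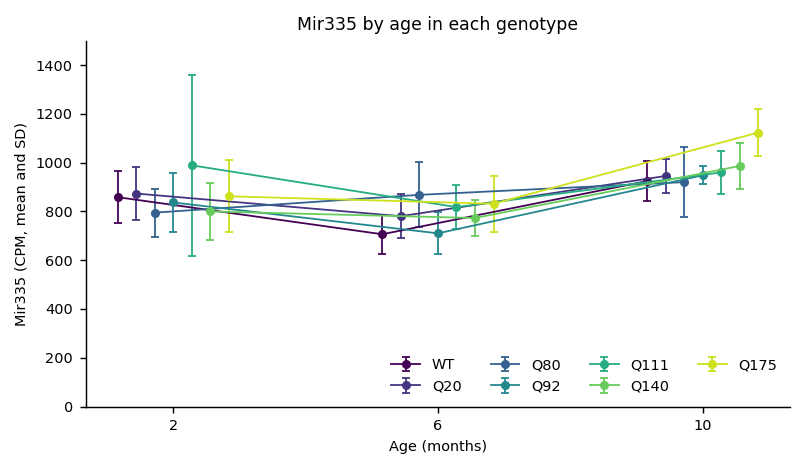
Mir335 level (CPM, linear axis) by age in each genotype; points are group means and bars the SD over 8 libraries. Between 2m and 6m the mean is higher in Q80 alone, and at 10m the Q175 mean of 1124 CPM is the highest of the 7.

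No sex difference in Mir335 was detected. Males averaged 842 ± 146 CPM and females 878 ± 208 CPM at 2m (SD, n = 29 and 27), 784 ± 114 CPM in males and 784 ± 104 CPM in females at 6m (n = 28 each), and 964 ± 112 CPM in males and 981 ± 108 CPM in females at 10m (n = 27 and 29). The fitted male minus female difference was -0.03 at 2m, 0.01 at 6m and -0.04 at 10m (adjusted p = 0.900, 0.968 and 0.786, edgeR), and -0.02 over all ages (SE 0.03, 95% interval -0.08 to 0.04, adjusted p = 0.893). The shares of transcripts called were 0.426% at 2m, 0% at 6m, 0% at 10m and 1.06% over all ages. At 6m, 32 transcripts had an unadjusted p under 0.05 and DESeq2 called 0, and at 10m 63 did and DESeq2 called 1.

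In Q175 at 10m, the 4 males had 966, 1009, 1164 and 1251 CPM and the 4 females 1086, 1159, 1161 and 1193 CPM. Both sexes thus reached the same levels, with the males more spread. The slope with CAG length in males minus that in females was -0.05 at 2m (SE 0.13), 0.05 at 6m (SE 0.10) and -0.00 at 10m (SE 0.07), with adjusted p = 0.958, 0.999 and 0.997 (edgeR). The shares of transcripts called in these comparisons were 0%, 0.213% and 1.06%. At 2m, 31 transcripts had an unadjusted p under 0.05 and DESeq2 called 0.

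No microRNA gene near Mir335 was called higher with CAG length at 10m. Within 1 Mb on chromosome 6 the table holds Mir182, Mir96 and Mir183, a cluster known from sensory organs and more than 0.5 Mb away, and Mir29a and Mir29b-1, a pair known to repress collagens and DNA methyltransferases. Of these 5, 0 were called higher and 1 lower, beside 11.1% of all transcripts called in either direction. The 1 was Mir29a, with a slope of -0.09 (SE 0.02, adjusted p = 0.00327, edgeR), and the Mir96 slope was 0.20 with an SE of 0.32 (adjusted p = 0.756, edgeR). At 10m relative to 2m all 5 were called higher, beside 41.9% of all transcripts called in either direction (93 of 470 higher), with differences between 0.21 for Mir29a and 1.87 for Mir183 on the log2 scale, as was Mir335 at 0.15. The median of all transcripts was -0.01. Within groups, their correlation with Mir335 lay between -0.01 and 0.12.

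The imprinted microRNA genes of other chromosomes took several courses. Mir296 and Mir298, neighbours in the imprinted Gnas region, fell with age, with differences of -1.51 and -1.15 on the log2 scale at 10m relative to 2m (adjusted p = 4.23e-44 and 2.68e-32, edgeR). Mir483, which lies in an intron of the growth factor gene Igf2, rose with CAG length at 10m by 1.38 per 100 repeats (SE 0.20, adjusted p = 1.35e-06, edgeR). It averaged only 3.50 CPM, and its rise lay in Q175: at 10m it differed from the controls by 2.63 in Q175 (SE 0.23) and by 0.05 in Q140 (SE 0.31). Of the 49 tested genes between Dlk1 and Dio3, the large imprinted cluster of chromosome 12, 4 rose and 0 fell with CAG length at 10m (Mir323, Mir337, Mir431 and Mir667), and the median slope of the 49 was 0.03, beside 0.00 for all 470 transcripts. The share of all transcripts called at 10m was 11.1% in either direction, with 27 of 470 higher and 25 lower. Of the 49 slopes at 10m, 41 were above 0. With age, 10 of the 49 were higher and 11 lower at 10m than at 2m, close to the background of 41.9%. Of the 12 tested genes inside the imprinted Sfmbt2, 6 rose and 0 fell with CAG length at 10m and 9 were lower at 10m than at 2m, beside 11.1% and 41.9% of all transcripts called in these comparisons, but their sequences are much alike and their counts uncertain. These lists were chosen with results of these data known, and nothing about imprinting is read from the counts.

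Across libraries, Mir335 varied together with a small set of microRNAs. After the mean of each group and batch was removed, the 5 of 406 transcripts with the highest Pearson r over all libraries of the series were Mir3547 (0.70), Mir31 (0.67), Mir758 (0.61), Mir1247 (0.55) and Mir770 (0.55), where the median of all was 0.00 and 90% lay between -0.32 and 0.40. The 3 lowest were the let-7 genes Mirlet7b (-0.61), Mirlet7c-2 (-0.58) and Mirlet7c-1 (-0.50). Without the high Q111 library these were 0.66, 0.61, 0.59, 0.54 and 0.51, and -0.52, -0.48 and -0.42. The points share library preparation and the CPM scale, in which abundant genes displace others, and the part of either was not tested. The let-7c copies may share reads.

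Of the 5 most alike, 3 (Mir758, Mir1247 and Mir770) lie between Dlk1 and Dio3, which holds 12.1% of the 406. The median r of the 49 genes of that cluster with Mir335 was 0.25. For the imprinted Mir298 it was 0.51, for Mir296 0.20 and for Mir483 -0.18. Over the 21 group means, a measure that contains the differences of age and genotype, the highest were Gm25252 (0.85), Mir544 (0.77), Mir376c (0.77), Mir879 (0.75) and Mir142b (0.74), and 3 of these 5 again lie between Dlk1 and Dio3.

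**Figure D5:**
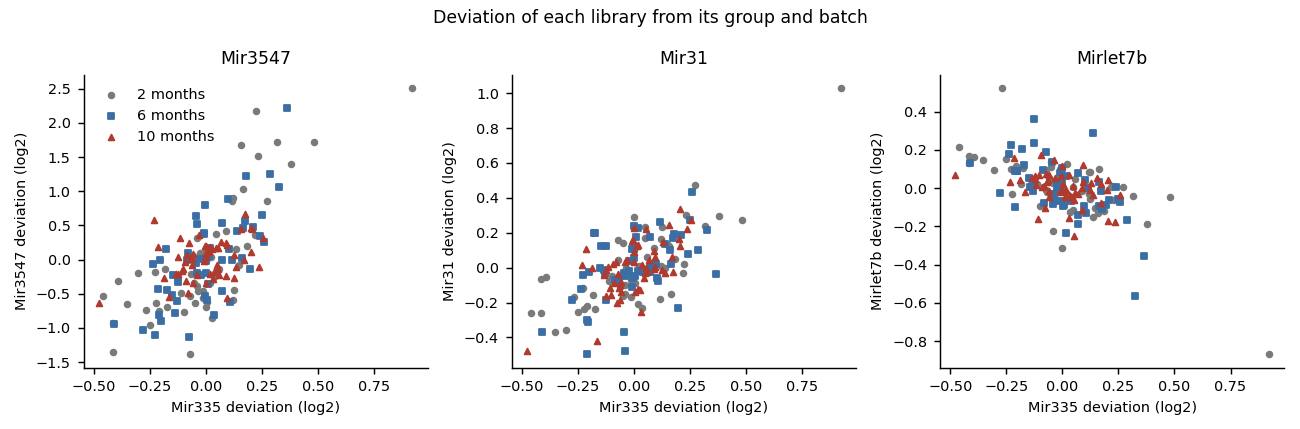
Deviation of each library of the series from its group and batch mean (log2) for Mir335 (x) against Mir3547, Mir31 and Mirlet7b (y), by age. Mir3547 (r = 0.70) and Mir31 (r = 0.67) go with Mir335 and Mirlet7b (r = -0.61) against it, and the point farthest to the right is the Q111 library F1 at 2m.

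Mir335 was somewhat more variable than genes of its level. The SD of its residuals was 0.18 log2 units, beside a median of 0.13 for the 68 transcripts within 2-fold of its level, of which 47 had a smaller SD. Its correlation with the log2 library total within groups was 0.17. Markers of the cell types that hippocampus tissue could hold showed little relation to it within groups. The lists were neuron, oligodendrocyte, microglia and leukocyte, red blood cell, vascular, mesenchymal, and choroid plexus and epithelium. After group and batch means were removed, the correlation of Mir335 with the summed level of each list lay between -0.09 and 0.04 over all libraries. Over the 21 group means, the median r of a list's genes with Mir335 was 0.42 for choroid plexus and epithelium, 0.34 for vascular and 0.28 for mesenchymal. It was 0.12 for red blood cell, 0.04 for microglia and leukocyte, -0.14 for neuron and -0.36 for oligodendrocyte. The part of these cell types in the group differences was not tested. Neuron markers (Mir124, Mir128, Mir137, Mir138 and Mir218 genes) were abundant in every library, with a sum between 33302 and 67161 CPM. At 10m that sum was between 38626 and 48076 CPM in Q175 (median 43156), between 44982 and 51646 CPM in Q20 (median 47227) and between 45466 and 50495 CPM in WT (median 48383), and 4 of its 10 genes fell with CAG length while 0 rose, beside 25 of 470 transcripts called lower and 27 called higher. The part of this shift in the Mir335 slope was not tested.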

How the data were processed

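Short RNA was sequenced as strand-specific single-end reads of 36 bases on a HiSeq2000 after miRNeasy extraction. According to the study's methods, reads were aligned to mm10 with STAR at default settings and counted with HTSeq; CASAVA 1.8.2 is listed in the submitters' processing notes. Counts and RPKM values were deposited by the authors as 2 tables. The deposited counts are often fractional and are therefore estimated counts, where whole counts had been assumed; they were rounded before fitting, and the program behind them is not given in the sources used. The RPKM values deposited by the authors served only for an alternative, since those of block A are on another scale. Transcripts were matched to GENCODE M21 (1228 of 1626).

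Filtering with filterByExpr (edgeR 4.0.16, R 4.3.3, minimum count 10) left 470 transcripts. The quasi-likelihood test was fitted over all of them with TMM scaling and Benjamini-Hochberg adjustment, for CAG length (WT as 7 repeats, per 100 repeats) with sex and batch, for single alleles against WT and Q20, for sex, for the product of sex and CAG length, and for age. SEs were taken from the fold change and F. Log2 CPM used a prior count of 2. At 2m and 10m, batches are the codes in the library names. At 6m they are block A and the other block, named from the library numbers. The other block was fitted as 1 batch, although the codes in its library names were not all the same. Differences between those codes were not tested. Alternatives were DESeq2 1.42.0, limma 3.58.1 on log2(RPKM + 1), other scalings, no filter, a replicate block, subsets and leaving out each library. Scripts were tested on simulated data. No 2 libraries held identical values.

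The gene and all lists were chosen with earlier results of these data known. Named genes were Mir335, the 5 most and 3 least like it within groups, the 5 most like it over group means, its neighbours within 1 Mb and the imprinted single genes. The comparison of 10m with 6m was added after the data were seen. RNA species other than those in the 2 tables were not analysed here.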

Additional observations from a re-analysis of the deposited data

Results flagged for a closer look

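Each of the 21 groups was examined for a library far from the others (Dixon's test on 8 values, which chance passes in about 1 group of 20), and 2 groups held one. In Q111 at 2m, the female library F1 had 1836 CPM of Mir335, the next highest had 1052 CPM, and the gap was 0.690 of the group's range. In WT at 10m, the female library F4 had 1104 CPM, the next highest had 935 CPM, and the gap was 0.611 of the range; 64 of 470 transcripts deviated further upward in that library.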

How the results depend on the processing

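Beyond leaving out single libraries, 118 alternative values of the tested results were computed, and in 105 the direction and the side of the threshold were kept. Of the values with no test, the 6m slope ranged between -0.04 and 0.12. It was below 0 without Q175, without WT and without block A. Those fits all rest on the libraries outside block A and are not separate checks. The 10m slope ranged between 0.07 and 0.18. The Q175 difference ranged between 0.16 and 0.28 at 6m and between 0.27 and 0.29 at 10m. The fall at 6m relative to 2m was not called with no low-count filter (-0.10, adjusted p = 0.151, edgeR), with limma on RPKM (-0.11, adjusted p = 0.0700), in males only (-0.073, adjusted p = 0.408) and without the high Q111 library (-0.089, adjusted p = 0.0666, an alternative chosen after seeing the data). The difference between 10m and 2m was not called in WT and Q20 only (0.11, adjusted p = 0.146) or in females only (0.11, adjusted p = 0.257); the fits of subsets hold fewer libraries, and the cause was not tested for the others. Values near 0 that were not called changed sign: the 2m slope with no batch term (0.00028) and without Q140 (0.021), Q175 at 2m with Q20 alone as the control (-0.0096), sex at 6m on RPKM (-0.0012) and without block A (-0.018), and the sex difference in slope at 10m with the replicate block (0.012) and without Q175 (0.0011). Leaving out each library in turn gave slopes of -0.039 to 0.017 at 2m, 0.06 to 0.11 at 6m and 0.13 to 0.16 at 10m, and male minus female differences of -0.051 to 0.021 at 2m, -0.0020 to 0.034 at 6m and -0.05 to -0.02 at 10m; none of the tested ones was called, with adjusted p of at least 0.628. No pairing of animals by replicate number was seen. The mean correlation of deviations between libraries of the same sex and number was -0.008 at 2m, 0.001 at 6m and 0.012 at 10m. For libraries of the same sex and another number it was -0.0004, 0.004 and 0.002. Litters are not in the labels, and whether animals shared litters was not tested. The replicate block changed no call of Mir335 (10m relative to 2m, 0.15, adjusted p = 0.00788, edgeR). Q140 at 6m with WT alone and Q175 at 6m with Q20 alone as control could not be fitted, because the pairs stood in different blocks. Depth did not limit Mir335, but its hairpin value cannot separate the arms.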
